A study of Mus musculus with 10 samples.

Results

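The interferon regulatory factors (IRFs) and signal transducers and activators of transcription (STATs) that were followed here are 9 mouse genes, Irf1, Irf2, Irf3, Irf5, Irf7, Irf8, Irf9, Stat2 and Stat3. They were chosen by symbol and found through their Ensembl identifiers, 9 of the 43432 genes in the count table, and all 9 passed the filter on low counts. RNA was sequenced from the mouse macrophage line RAW264.7 in 5 conditions with 2 libraries each. The conditions were the solvent control without LPS (DMSO, 0.5%), the same solvent followed by 1 µg/mL LPS (DMSO + LPS), and the 7(E) isomer of 9-keto-hexadec-7-enoic acid (**1**), a fatty acid from a marine cyanobacterial mat, at 32, 10 or 3.2 µM with LPS. LPS is a bacterial cell wall component that macrophages sense through Toll-like receptor signaling. Cells received **1** or solvent 1 h before LPS and RNA was taken after 12 h. One cell line was used, no condition held **1** without LPS, and the 2 libraries of a condition are labeled as biological replicates without saying whether they came from separate cultures, so p-values measure the spread between these libraries.

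IRFs and STATs carry the interferon and cytokine signals of an activated macrophage to its genes. IRF3, present before the stimulus, is phosphorylated by the kinase TBK1 and switches on the interferon β gene, and IRF7 then amplifies interferon production. Secreted interferon acts back on its receptor, where JAK kinases phosphorylate STAT proteins. STAT2, IRF9 and a STAT partner form the complex ISGF3, which binds the interferon-stimulated response element (ISRE), while STAT dimers bind the gamma-activated site (GAS). IRF5 serves inflammatory cytokine genes downstream of MyD88, IRF1 drives antigen presentation genes and is antagonized by IRF2, IRF8 sustains the myeloid lineage with PU.1, and STAT3 transmits interleukin-6 and interleukin-10.

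The stretches upstream of 5 genes are shown because they held a motif through which these or other stimulus-responsive factors act. RefSeq promoter windows of 300 bases (250 before to 50 after a start, GRCm38.p6) matched all 9 genes with 12 windows. Both strands were searched for the ISRE core GAAANNGAAA, the GAS TTCNNNGAA, the κB site by name, and the core of the antioxidant response element (ARE), TGACNNNGC. Capitals mark the matches, and the sequences run from 5′ to 3′ on the strand of the gene.
Stat2 chr10:128270248-128270497 (plus strand): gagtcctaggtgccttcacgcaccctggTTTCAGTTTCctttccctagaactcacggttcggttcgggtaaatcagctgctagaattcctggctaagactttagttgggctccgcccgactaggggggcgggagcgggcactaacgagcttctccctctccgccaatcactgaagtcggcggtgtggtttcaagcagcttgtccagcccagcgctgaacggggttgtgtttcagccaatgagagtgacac
Irf7 chr7:141266484-141266674 (minus strand): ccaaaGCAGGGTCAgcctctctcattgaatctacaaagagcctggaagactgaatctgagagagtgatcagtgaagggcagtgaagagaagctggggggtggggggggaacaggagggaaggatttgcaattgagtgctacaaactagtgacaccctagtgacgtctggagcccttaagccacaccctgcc
Irf1 chr11:53769904-53770013 (plus strand): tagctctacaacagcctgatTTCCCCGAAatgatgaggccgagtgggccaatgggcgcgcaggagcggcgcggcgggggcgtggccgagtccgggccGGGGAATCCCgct
Irf2 chr8:46739495-46739545 (plus strand): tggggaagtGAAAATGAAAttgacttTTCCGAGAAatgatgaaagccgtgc
Irf8 chr8:120736178-120736228 (plus strand): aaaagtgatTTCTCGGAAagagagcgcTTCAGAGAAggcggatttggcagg
The ISRE core stood in the Stat2 stretch, from position -222 relative to the start and on the opposite strand, and in the Irf2 stretch from position -241. Of all 32851 windows, 3.44% held this core. A GAS stood in the windows of Irf1, Irf2 and Irf8, the last with 2 of them, and in 8.30% of all windows. The GAS letters are palindromic, so each match stands on both strands. A κB match stood at -13 from the Irf1 start and a further one at -17 from the Irf2 start, with 8.46% of all windows holding one. The ARE core, the kind of site bound by Nrf2, stood at -245 from the Irf7 start on the opposite strand and in a second window of Irf8, and in 12.4% of all windows. The Irf2 stretch lies in an exon of the noncoding gene Gm16675. A match describes letters in a window and was not tested as a binding site.

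Total counts per library lay between 45966803 and 58976377, and the 9 genes together took 0.0701% to 0.178% of them. CPM below are counts scaled to the TMM-adjusted library total, and tests are edgeR's quasi-likelihood test over 14172 genes with Benjamini-Hochberg adjusted p. A gene was called when it changed 1.5-fold or more with an adjusted p below 0.05. All 8 macrophage markers were detected, with a summed level of 9564 to 10399 CPM in DMSO, 6531 to 6555 CPM in DMSO + LPS and 5007 to 5345 CPM at 32 µM, most of it from Lyz2 (2585 to 6841 CPM). The 8 did not move as 1 group: with LPS 3 were called higher and 3 lower (median log2 -0.018), and at 32 µM against DMSO + LPS 3 were called lower and none higher (median log2 -0.23). Of all genes tested, 14.6% were called higher and 13.6% lower with LPS, and 1.27% higher and 2.91% lower at 32 µM. The 16 markers of other cells summed to 4.08 to 4.12 CPM in DMSO and to 59.1 to 71.8 CPM in the libraries with LPS, most of it from Itgax (3.14 to 64.4 CPM), and Cd3e, Ncr1 and Klrb1c stood at 0. The epithelial markers Epcam and Krt18 stood apart in 10 µM replicate 1 (9.69 and 1.87 CPM) and 3.2 µM replicate 1 (1.68 and 0.259 CPM), and reached at most 0.0352 and 0.017 CPM in the other libraries. Without 10 µM replicate 1 the decrease of Stat2 at 10 µM was called as before (log2 -0.66), and without 3.2 µM replicate 1 it was -0.65. Gm42418, a gene that overlaps ribosomal RNA, took 2.46% of the counts in 32 µM replicate 2 and 0.0419% to 0.207% in the other libraries. The part of these shifts in the results was not tested, other than by leaving out each library. In bulk RNA, fewer cells with a transcript and less of it per cell cannot be told apart.

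The genes differed widely in level. Per length (CPM per kilobase of the principal transcript), Irf5 was the highest in DMSO at 77.6 ± 0.36 (SD, n = 2), followed by Irf7 at 48.7 ± 0.40. Irf2 stood at 25.6 ± 0.99, Irf9 at 23.0 ± 0.64 and Stat3 at 21.5 ± 1.10 CPM per kilobase. Lower per length were Irf3 at 17.1 ± 0.39, Stat2 at 14.3 ± 0.67, Irf1 at 11.2 ± 0.54 and Irf8 at 9.49 ± 0.46. With LPS the order changed at the top, with Irf7 at 450 ± 9.90 and Irf5 at 161 ± 2.55 CPM per kilobase. At 32 µM their levels per length overlapped, 161 ± 6.71 for Irf7 and 160 ± 2.01 for Irf5. Irf8 was the lowest of the 9 per length in every condition, at 6.57 to 9.49 CPM per kilobase.

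**Figure D1:**
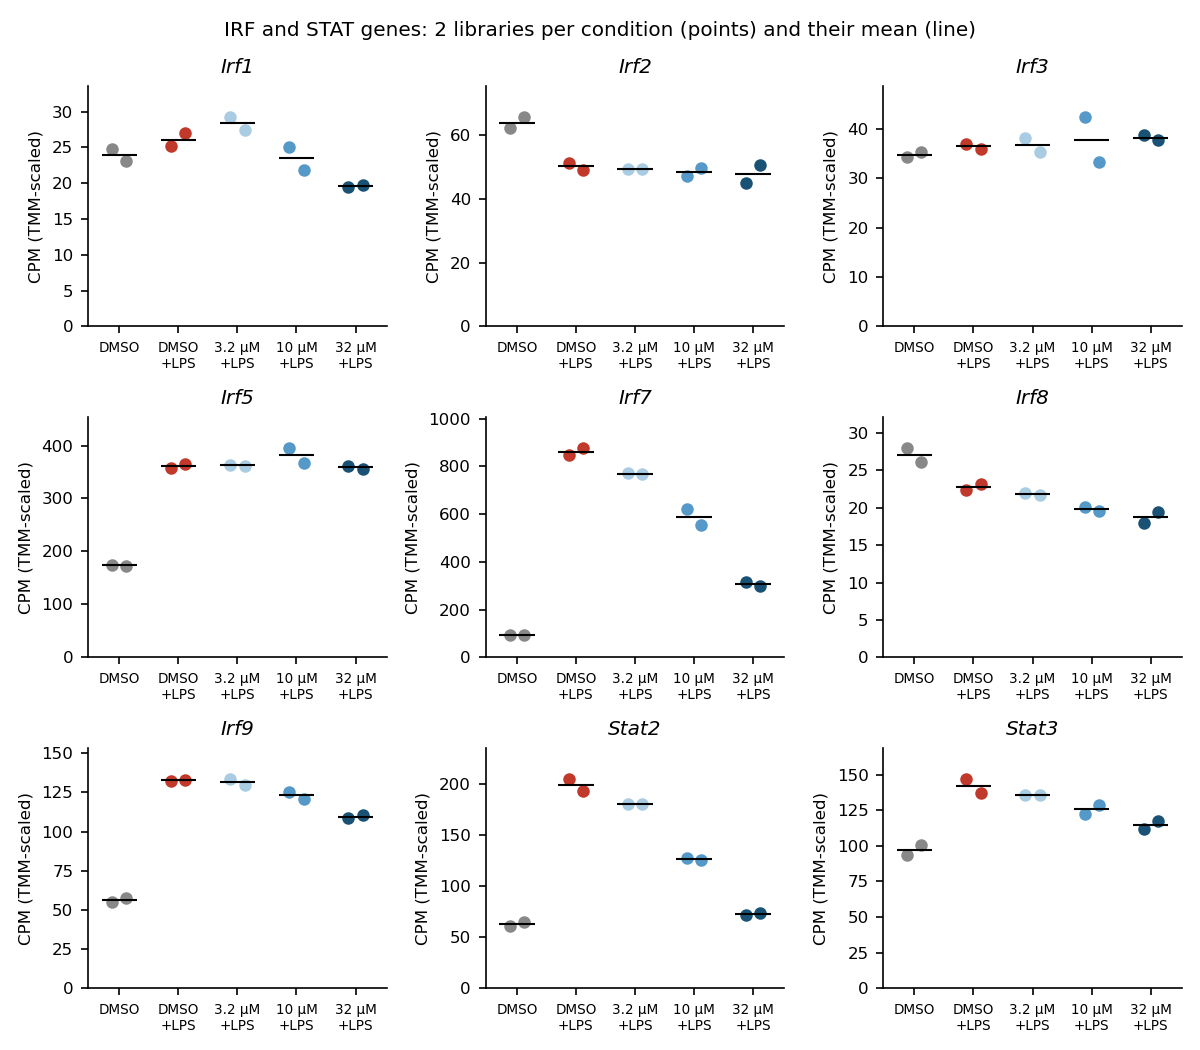
CPM (TMM-scaled, linear axis from 0) of the 9 genes in 5 conditions, with a point for each of the 2 libraries and a line at their mean. Irf7 and Stat2 stand high in DMSO + LPS and lower at each higher dose of **1**, while Irf5 stands between 356 and 395 CPM in all 8 libraries with LPS.

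LPS raised 4 of the 9 genes, Irf7, Stat2, Irf9 and Irf5, and none was called lower. Of all genes tested 28.2% were called in this comparison, 2072 higher and 1923 lower. Scaling by library size alone moved the median of all genes by -0.21 log2 and this split to 1582 higher and 2938 lower, with the same count of 4 among the 9 genes. The median log2 fold change was 0.55 over the 9 genes and 0.0026 over all genes tested. At 32 µM against DMSO + LPS, 2 of the 9 were called lower, Irf7 and Stat2, beside 4.18% of all genes tested, 180 higher and 412 lower. The median there was -0.28 over the 9 genes and 0.0082 over all genes. Without the fold cutoff, 50.9% of all genes passed the adjusted p with LPS, 9.78% at 32 µM, 2.67% at 10 µM, 0.903% between 10 and 3.2 µM and 2.76% between 32 and 10 µM, which is the background for the genes below described as under the fold cutoff.

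**Figure D2:**
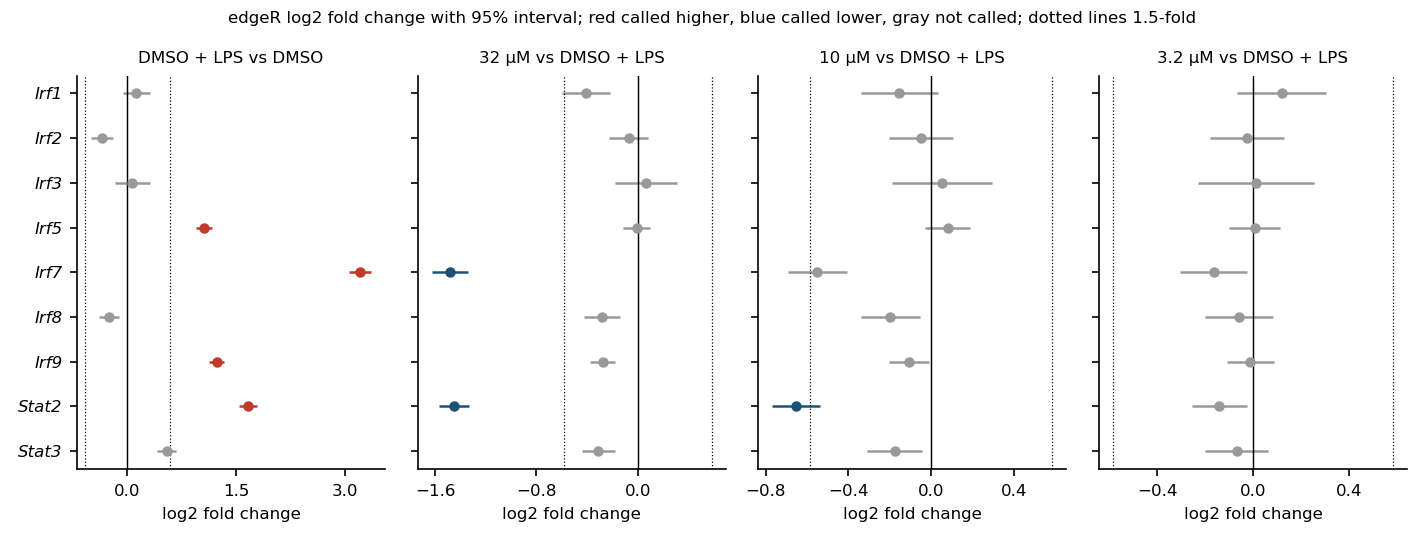
Log2 fold change (horizontal axis, a separate scale in each panel) of each gene with its 95% interval in 4 comparisons, with dotted lines at 1.5-fold. Red marks genes called higher, blue genes called lower and gray genes not called. At 32 µM Irf7 at -1.48 and Stat2 at -1.45 lie apart from the other 7 genes, which lie between -0.41 and 0.066.

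Irf7, the interferon-inducible amplifier of type I interferon production (ENSMUSG00000025498, chr7:141262706-141266481 on GRCm38, minus strand), had the largest LPS change of the 9. It held 92.8 and 93.9 CPM in DMSO, 849 and 876 once LPS was added, and under LPS with **1** 771 and 767 (3.2 µM), 623 and 554 (10 µM) and 317 and 299 (32 µM). No library of one condition overlapped with another condition, and the conditions ordered as DMSO, 32 µM, 10 µM, 3.2 µM and DMSO + LPS. LPS raised it 9.24-fold (log2 3.21, SE 0.067, adjusted p = 1.26e-08). At 32 µM it was 2.80-fold lower than in DMSO + LPS (log2 -1.48, SE 0.063, 95% interval -1.63 to -1.34, adjusted p = 5.83e-06). It was still 3.30-fold above DMSO there (adjusted p = 2.73e-07). At 10 µM the decrease was 1.46-fold (log2 -0.55, adjusted p = 0.00408), just under the 1.5-fold cutoff, and without 10 µM replicate 1, the higher of both libraries, it was -0.64 and passed. Its adjusted p rose above 0.05 on the 4 libraries compared alone and without DMSO + LPS replicate 2 (up to 0.0983).

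Stat2, a subunit of ISGF3 (ENSMUSG00000040033, chr10:128270559-128292849, plus strand), carried the ISRE core printed above. Its levels were 60.6 and 64.7 CPM in DMSO, 204 and 193 once LPS was added, and under LPS with **1** 180.3 and 180.1 (3.2 µM), 128 and 125 (10 µM) and 71.5 and 73.7 (32 µM). The conditions did not overlap, and both libraries at 32 µM lay closer to DMSO than to any other condition. LPS raised Stat2 3.17-fold (log2 1.67, SE 0.051, adjusted p = 8.41e-08). The decrease against DMSO + LPS was 2.74-fold at 32 µM (log2 -1.45, SE 0.051, 95% interval -1.57 to -1.33, adjusted p = 3.09e-06). Stat2 was also the 1 gene of the 9 called at 10 µM, where 0.861% of all genes were called, and fell 1.57-fold (log2 -0.65, SE 0.050, adjusted p = 9.66e-04). At 32 µM it stayed 1.16-fold above DMSO (log2 0.21, adjusted p = 0.00841), below the fold cutoff.

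Irf9, the DNA-binding subunit of ISGF3 (ENSMUSG00000002325, chr14:55603571-55610030, plus strand), did not follow Stat2 in size. It stood at 55.4 and 57.6 CPM in DMSO, 132.5 and 132.9 once LPS was added, and under LPS with **1** 133 and 129.95 (3.2 µM), 126 and 121 (10 µM) and 109 and 111 (32 µM). LPS raised it 2.35-fold (log2 1.23, SE 0.043, adjusted p = 1.79e-07). The libraries at 32 µM lay below all of DMSO + LPS and far above DMSO. The difference at 32 µM was 1.21-fold (log2 -0.28, 95% interval -0.37 to -0.18, adjusted p = 0.00498), which passed the p threshold and not the fold cutoff. In the table used, 2.28% of the exonic bases of Irf9 are shared with Rnf31 on the same strand.

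The ratio of Stat2 to Irf9 within a library, per nucleotide of transcript, shows this difference without scaling between libraries. It was 0.612 and 0.629 in DMSO, 0.863 and 0.812 once LPS was added, and under LPS with **1** 0.756 and 0.775 (3.2 µM), 0.568 and 0.581 (10 µM) and 0.368 and 0.373 (32 µM). The ratio was above that of DMSO in DMSO + LPS and at 3.2 µM, and below it at 10 and 32 µM, with no overlap between conditions. The ratios are given as descriptions and were not tested. The ratio of Irf7, the inducible factor, to Irf3, the constitutive one, was 2.87 and 2.81 in DMSO, 24.3 and 25.9 once LPS was added, and under LPS with **1** 21.4 and 23.0 (3.2 µM), 15.6 and 17.7 (10 µM) and 8.70 and 8.42 (32 µM). This ratio also separated all 5 conditions, and at 32 µM both libraries were above those of DMSO.

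**Figure D3:**
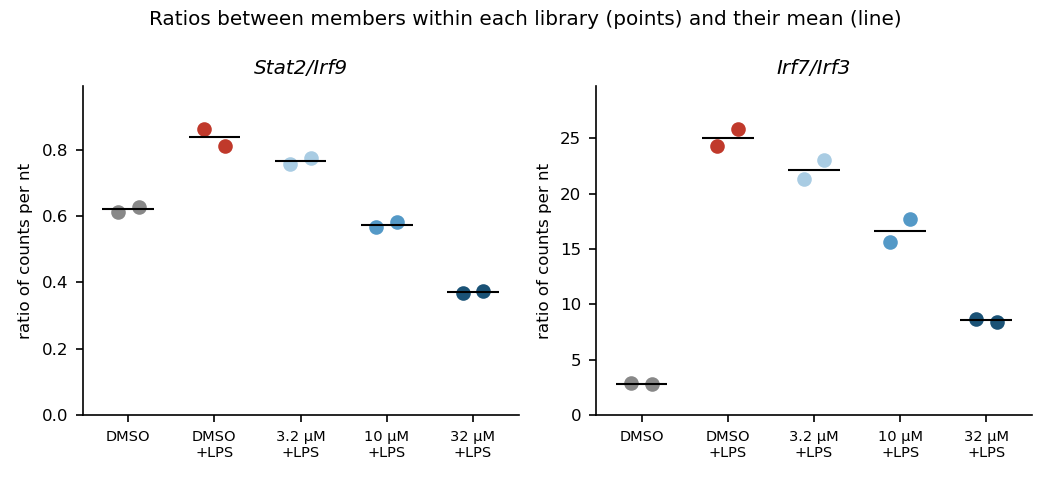
Ratio of Stat2 to Irf9 and of Irf7 to Irf3 within each library, in counts per nucleotide of the principal transcript (axes from 0), with a point per library and a line at the mean of 2. Stat2/Irf9 at 32 µM (0.368 and 0.373) lies below DMSO, whereas Irf7/Irf3 at 32 µM (8.70 and 8.42) lies above it.

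Irf5, which serves cytokine genes downstream of MyD88 (ENSMUSG00000029771, chr6:29526625-29541871, plus strand), rose with LPS and stayed up at every dose. It held 174 and 173 CPM in DMSO, 357 and 365 once LPS was added, and under LPS with **1** 364 and 362 (3.2 µM), 395 and 368 (10 µM) and 362 and 356 (32 µM). All 8 libraries with LPS lay above both DMSO libraries, and the 32 µM and DMSO + LPS libraries overlapped. The LPS increase was 2.08-fold (log2 1.05, SE 0.047, adjusted p = 5.94e-07). The difference at 32 µM was -0.0085 on the log2 scale (95% interval -0.12 to 0.098, adjusted p = 0.961), an interval that leaves out the decreases of Irf7 and Stat2. Of the exonic bases of Irf5, 14.1% lie opposite exons of Tnpo3, and whether the counting used strand is not given in the sources used here.

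Stat3, which transmits interleukin-6 and interleukin-10 (ENSMUSG00000004040, chr11:100885098-100939540, minus strand), moved in the same order with smaller steps. Its levels were 93.7 and 101 CPM in DMSO, 147 and 137 once LPS was added, and under LPS with **1** 135 and 136 (3.2 µM), 123 and 129 (10 µM) and 112 and 117 (32 µM). Both DMSO libraries lay lowest and both DMSO + LPS libraries highest, with no overlap at 32 µM with either. With LPS it was 1.46-fold higher (log2 0.55, SE 0.057, adjusted p = 9.23e-05), under the fold cutoff, and it was called in 2 of 19 alternative analyses. At 32 µM it was 1.24-fold lower than in DMSO + LPS (log2 -0.31, adjusted p = 0.0115), also under the cutoff, with an adjusted p below 0.05 in 17 of 19 alternatives (up to 0.109), lost without DMSO + LPS replicate 1 and without 32 µM replicate 1.

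The part of the LPS increase in CPM that was left at each dose sets the 4 genes called with LPS and Stat3 side by side as a description. For Stat2, 86.4% was left at 3.2 µM, 46.9% at 10 µM and 7.32% at 32 µM (6.48% and 8.15% in the libraries). For Irf7 it was 87.9%, 64.4% and 28.0% (29.2% and 26.8% at 32 µM). For Stat3 it was 85.6%, 63.5% and 38.6%, for Irf9 98.6%, 87.5% and 69.7%, and for Irf5 101%, 111% and 98.9%. On TMM-scaled CPM the genes at 32 µM thus ordered as Stat2, Irf7, Stat3, Irf9 and Irf5, and no library of one reached into the range of the next. The library percents hold the means of DMSO and DMSO + LPS fixed. Percents and order are given for TMM alone and were not computed under another scaling. Over the 19 alternatives, the log2 difference of 32 µM from DMSO went down to 0.032 for Stat3, 0.0093 for Stat2 and 1.52 for Irf7. With TMM on all libraries these were 0.24, 0.21 and 1.72.

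**Figure D4:**
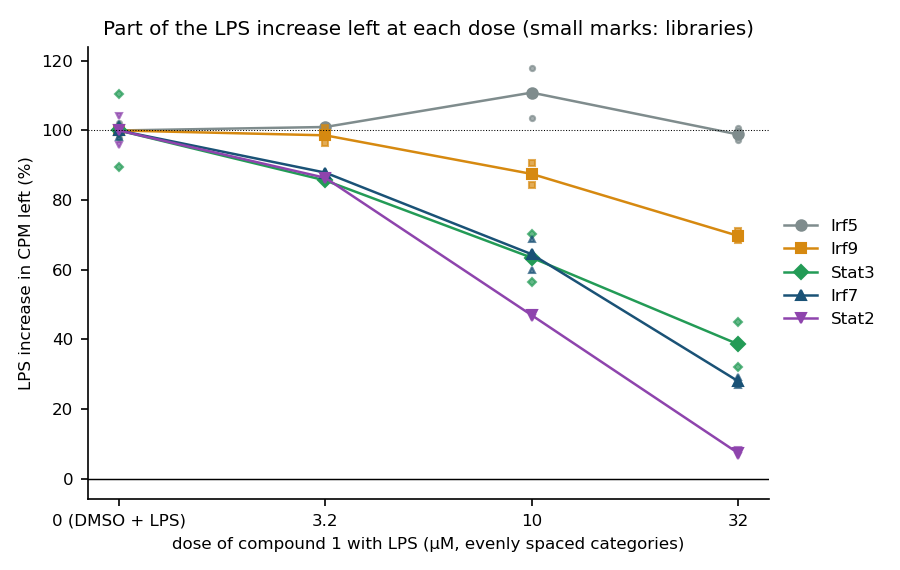
Percent of the LPS increase in CPM left at each dose of **1** (0 µM is DMSO + LPS, doses evenly spaced as categories) for the 4 genes called higher with LPS and for Stat3, which was 1.46-fold higher and not called. Lines join the means of 2 libraries and small marks show the libraries, with Stat2 at 7.32%, Irf7 at 28.0% and Irf5 at 98.9% at 32 µM. The percents rest on TMM-scaled CPM and were not computed under another scaling.

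Irf1, the activator of antigen presentation genes (ENSMUSG00000018899, chr11:53770014-53778374, plus strand), was not called in any comparison. It held 24.8 and 23.2 CPM in DMSO, 25.2 and 27.0 once LPS was added, and under LPS with **1** 29.2 and 27.5 (3.2 µM), 25.1 and 21.8 (10 µM) and 19.5 and 19.8 (32 µM). The 32 µM libraries lay below all others and the 3.2 µM libraries above all others. With LPS the log2 difference was 0.12 (adjusted p = 0.25), which turned to -0.086 when libraries were scaled by size alone. At 32 µM it was -0.41 against DMSO + LPS (SE 0.081, adjusted p = 0.0165) and -0.29 against DMSO (adjusted p = 0.0185), both under the fold cutoff. They kept an adjusted p below 0.05 in 15 and 16 of 19 alternatives, and both lost it without either 32 µM library. The first also lost it without either DMSO + LPS library, and the second without DMSO replicate 1.

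Irf2, the antagonist of Irf1 (ENSMUSG00000031627, chr8:46739732-46847458, plus strand), was highest without LPS. Its levels were 62.2 and 65.7 CPM in DMSO, 51.4 and 49.1 once LPS was added, and under LPS with **1** 49.3 and 49.5 (3.2 µM), 47.4 and 49.9 (10 µM) and 45.1 and 50.6 (32 µM). All 8 libraries with LPS lay below both DMSO libraries and overlapped among themselves. The LPS difference was -0.35 on the log2 scale (adjusted p = 0.00283), under the fold cutoff, and that of 32 µM from DMSO + LPS was -0.073 (adjusted p = 0.633).

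Irf8, the myeloid lineage factor (ENSMUSG00000041515, chr8:120736358-120756694, plus strand), was lower with LPS and lower again with **1**. It stood at 27.9 and 26.1 CPM in DMSO, 22.3 and 23.1 once LPS was added, and under LPS with **1** 22.0 and 21.7 (3.2 µM), 20.0 and 19.6 (10 µM) and 18.0 and 19.4 (32 µM). Each condition lay below the one before it in that sequence, without overlap. The LPS difference was -0.25 (adjusted p = 0.0095) and that at 32 µM against DMSO + LPS -0.28 (adjusted p = 0.0258), each under the fold cutoff. The first lost its adjusted p without DMSO replicate 1 or DMSO + LPS replicate 1 (up to 0.0686), and the other held in 13 of 19 alternatives (up to 0.176). Between 32 µM and DMSO the difference came to -0.53 on the log2 scale (1.44-fold lower, adjusted p = 1.77e-04). This last difference was called in 3 of 19 alternatives, without DMSO replicate 2 (-0.61), without 32 µM replicate 2 (-0.59) and with scaling by library size alone (-0.73).

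Irf3, the constitutive activator of interferon β (ENSMUSG00000003184, chr7:44997648-45002848, plus strand), was not called anywhere. It held 34.2 and 35.4 CPM in DMSO, 37.0 and 35.9 once LPS was added, and under LPS with **1** 38.3 and 35.3 (3.2 µM), 42.4 and 33.2 (10 µM) and 38.7 and 37.7 (32 µM). The 2 libraries at 10 µM held both the highest and the lowest value of the 10. The LPS difference was 0.067 (95% interval -0.18 to 0.31, adjusted p = 0.633), turning to -0.14 with scaling by library size alone, and the difference at 32 µM was 0.066 (95% interval -0.18 to 0.31, adjusted p = 0.817).

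At 3.2 µM none of the 9 genes was called against DMSO + LPS by edgeR, beside 0% of all genes tested, and none in 19 alternatives that included DESeq2. At an unadjusted p below 0.05 there were 2 of the 9, Irf7 (log2 -0.16) and Stat2 (log2 -0.14), and 600 of all genes (4.23%), with adjusted p = 0.999 for both genes by edgeR's quasi-likelihood test. From 3.2 to 10 µM none of the 9 was called by edgeR or the alternatives that kept the fold cutoff, beside 0.254% of all genes, and 3 of them had an unadjusted p below 0.05, Stat2 (log2 -0.51, adjusted p = 0.00633), Irf7 (log2 -0.39, adjusted p = 0.0365) and Irf1 (log2 -0.27, adjusted p = 0.288), beside 8.38% of all genes. From 10 to 32 µM Irf7 fell 1.91-fold (log2 -0.93) and Stat2 fell 1.74-fold (log2 -0.80), each with an adjusted p = 2.18e-04, beside 1.32% of all genes. Fitted on the 4 libraries compared alone, both lost the call (edgeR adjusted p = 0.0756 and 0.064) at unchanged size (log2 -0.93 and -0.80), and 5 of all 13355 genes tested there were called. These comparisons share libraries with each other.

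Between 32 µM with LPS and DMSO without it, 3 of the 9 were called, all higher, beside 27.1% of all genes. They were Irf7, Irf5 at 2.06-fold (log2 1.05, adjusted p = 8.15e-07) and Irf9 at 1.94-fold (log2 0.96, adjusted p = 8.78e-07). Stat3 stood 1.18-fold higher (log2 0.24, adjusted p = 0.00928) and Irf2 1.34-fold lower (log2 -0.42, adjusted p = 0.00104), both under the fold cutoff. With scaling by library size alone 5 of the 9 were called, with Irf2 (-0.62) and Irf8 added as lower. That scaling moved the median of all genes by -0.20 log2, and 30.3% of all genes were called, 1490 higher and 2798 lower, against 1964 and 1883 before.

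In the order of mean levels, conditions were compared in the edgeR quasi-likelihood fit of all 10 libraries. DMSO and the neighboring condition were separated at an adjusted p below 0.05 for Irf2, Irf5, Irf7, Irf8, Irf9, Stat2 and Stat3. The neighbor was DMSO + LPS for Irf2 and Irf8 and 32 µM for the other 5, and 50.9% of all genes tested passed that threshold in each of these comparisons. Among the conditions with LPS, the neighbors separated in that fit were 3.2 and 10 µM and 10 and 32 µM, for Irf7 and Stat2 alone. The shares of all genes were 0.903% and 2.76%. Alternatives also brought Stat3 below an adjusted p of 0.05 at both steps, and Irf9 between 10 and 32 µM. Between 3.2 and 10 µM, Irf7 kept an adjusted p below 0.05 in 8 of 19 alternatives (up to 0.342), and in 1 of the 10 that left out a library, 10 µM replicate 1. Stat2 kept it in 16 of 19 (up to 0.166), losing it without either 3.2 µM library and on the 4 libraries alone. The separation of Stat2 and of Stat3 at 32 µM from DMSO held in 16 of 19 each (up to 0.899 and 0.677), and was lost with library size alone, without DMSO replicate 1 and without 32 µM replicate 2. DMSO + LPS and 3.2 µM were not separated for any of the 9 in the edgeR quasi-likelihood fit of all 10 libraries. Among the alternatives, Irf7 alone of the 9 came below an adjusted p of 0.05 there. No neighboring conditions were separated for Irf1 or Irf3.

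Over the 10 libraries, the genes whose log2 CPM ran most like those of the genes called were named from 9561 genes with a mean of 5 CPM or more. For Irf7 they were Zbp1 and Tapbp (Pearson r = 0.999 each) and Igtp (0.998), for Stat2 Peak1os (0.997), Mov10 and Samhd1 (0.996 each). For Irf9 they were Lcn2 (0.999), Hcar2 and Slc15a3 (0.998 each), and for Irf5 Slc25a25 (0.999), Bcl3 and Zbtb32 (0.998 each). The 10 libraries share their 5 conditions, so these values describe likeness of pattern only.

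The genes around the 9 in their pathway were read from lists written with earlier results of these data known, and their counts are descriptions. They stand beside the shares over all genes tested, of which 14.6% were called higher and 13.6% lower with LPS, and 1.27% higher and 2.91% lower at 32 µM. Among 9 interferon and cytokine ligand and receptor genes, 3 were called higher and 2 lower with LPS, and at 32 µM 1 was called lower, the interferon β gene Ifnb1. Ifnb1 was scarce, with 0.068 and 0.106 CPM in DMSO, 1.05 and 1.24 once LPS was added and 0.245 and 0.243 under LPS with 32 µM (log2 -2.21, SE 0.30, adjusted p = 0.00241). The receptor chains Ifngr2 (log2 0.072), Ifnar1 (0.14) and Il6st (0.26), the 3 most abundant of the list, were not called at 32 µM.

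Of 14 kinases and adaptors between receptor and factor, 5 were called higher and 2 lower with LPS, where 28.2% of all genes tested were called. At 32 µM, where 4.18% of all genes were called, 1 of the 14 was called lower, Ikbke, a kinase of IRF3 and IRF7, at 66.6 CPM in DMSO + LPS and 41.3 CPM at 32 µM on average (log2 -0.69, adjusted p = 0.00489). Jak1 (log2 -0.0092), Tbk1 (-0.10) and Myd88 (-0.35), the most abundant, were not called. Of 12 inhibitors, 4 were called higher with LPS and 2 lower at 32 µM, Cish and Usp18. Usp18, which restrains the interferon receptor, averaged 50.3 CPM in DMSO, 574 in DMSO + LPS and 218 at 32 µM (log2 -1.40, adjusted p = 8.74e-06). Socs3, an inhibitor of STAT3 signaling, went from 8.80 to 941 CPM with LPS and averaged 762 CPM at 32 µM (log2 -0.30, adjusted p = 0.00282, not called), and Ptpn6 was not called (log2 -0.27). Of the 9 partner proteins of IRFs listed, 7 were tested, with Batf2 higher and Irf2bp2 lower with LPS, and Batf2 lower at 32 µM (log2 -1.67, adjusted p = 6.53e-04). Spi1, which encodes PU.1, Ep300 and Irf2bpl were not called at 32 µM (log2 -0.12, 0.023 and 0.16). Of 7 other IRF and STAT genes listed, 6 were tested, and 2 were called higher with LPS (14.6% of all genes) and 2 lower at 32 µM (2.91% of all genes).

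Of 26 genes known as targets of ISGF3, 26 were called higher with LPS, 25 lower at 32 µM, 7 lower at 10 µM and none at 3.2 µM. Of all genes tested, 0.579% were called lower and 0.282% higher at 10 µM, and 0% at 3.2 µM. Their median log2 fold change at 32 µM was -1.39, against 0.0082 over all genes tested. The most abundant were Rsad2 (735 CPM in DMSO + LPS and 187 at 32 µM on average, log2 -1.98), Ifi44 (log2 -1.51) and Oasl1 (log2 -0.95). Of 15 tested genes known to depend on IRF1, 14 were called higher with LPS and 12 lower at 32 µM, with a median of -1.39, while Irf1 itself was not called. The most abundant of these were B2m (log2 -0.40, adjusted p = 0.0597, not called), Tapbp (log2 -0.64) and Irgm1 (log2 -1.24).

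Of 6 tested cytokine genes that IRF3 and IRF5 act on, all 6 were called higher with LPS and 2 lower at 32 µM, Ifnb1 and Il6. Il6 averaged 96.8 CPM in DMSO + LPS and 26.1 at 32 µM (log2 -1.89, SE 0.12, adjusted p = 1.06e-04). Tnf averaged 1409 and 1251 CPM (log2 -0.17) and Ccl5 272 and 206 CPM (log2 -0.40, SE 0.25), neither called. The median of the 6 was -1.07. Of 15 STAT3 targets, 9 were called higher with LPS and 2 lower at 32 µM, Bcl2l1 (log2 -0.76) and Ccnd1 (log2 -0.78), with a median of -0.071. Zfp36 (log2 -0.44) and Junb (log2 -0.16), abundant members besides Socs3, were not called at 32 µM.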

How the data were processed

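RNA-seq of 10 RAW264.7 libraries, 2 per condition, was analyzed from the raw counts per mouse Ensembl gene that the authors deposited, without normalization. The libraries were poly(A)-selected and stranded. The submitters' processing notes name Trimmomatic, FastQC, STAR, DESeq2 and the build mm10 with no role or order, and the counting tool, its use of strand and the annotation are not given in the sources used here. No library was left out, and 19292 of 43432 genes had 0 counts throughout.

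Symbols and positions came from GENCODE M21 on GRCm38, promoter windows from RefSeq on GRCm38.p6. In R 4.3.3 with edgeR 4.0.16, genes kept by filterByExpr (minimum count 10) were scaled by TMM and fitted with 1 mean per condition on all 10 libraries, leaving 5 residual degrees of freedom. Intervals cover the fitted spread, and totals of at least 45966803 counts put 876 or more counts behind every level of the 9 genes. Calls needed 1.5-fold and a Benjamini-Hochberg adjusted p below 0.05 over 14172 genes. The script was tested on simulated data.

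The 9 genes and the lists were chosen with earlier results of these data known. Named were the 9 genes, the 3 most abundant tested genes of each list in DMSO + LPS, and the 3 genes most like each called gene. Genes named beyond these, as the few called members of a list, were chosen after their values were seen. The 7 other IRF and STAT genes are given as counts only. Alternatives replaced the test (DESeq2 1.42.0 Wald, likelihood ratio), the scaling (DESeq2 size factors, raw totals) or the count filter (none, 5 CPM on average), added the replicate number or a score of transcripts under 1000 nt, used the 4 libraries compared, dropped the fold cutoff, or left out each library.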

Additional observations from a re-analysis of the deposited data

How the results depend on the processing

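The calls of Irf7, Stat2, Irf9 and Irf5 with LPS, of Irf7 and Stat2 at 32 µM and of Stat2 at 10 µM were kept in 19 of 19 alternatives. Without the fold cutoff 7 of the 9 genes passed with LPS (50.9% of all genes tested), 6 at 32 µM (9.78%), 2 at 10 µM (2.67%), 2 between 10 and 3.2 µM (0.903%) and 8 between 32 µM and DMSO (50.9%). On the 4 libraries compared alone, 0 were called between 32 and 10 µM (0.0374% of all genes), at the same log2 differences. With library size alone 5 were called between 32 µM and DMSO, beside 30.3% of all genes (1490 higher and 2798 lower, median shift -0.20 log2). Leaving out each library in turn, where a lone library is assumed to vary like the other conditions, gave 1 to 2 calls at 10 µM, 4 to 5 with LPS and 3 to 4 between 32 µM and DMSO. Stat3 was called with LPS without DMSO + LPS replicate 2 (0.59) and with the short-transcript score (0.60).

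The replicate number was tried as a block, although the labels do not say what it marks. With the replicate block the count was 4 with LPS, 2 at 32 µM and 1 at 10 µM, and no call changed. Deviations of same-numbered libraries correlated at -0.42 to 0.83 over 9562 genes, negative for each pair with DMSO + LPS.

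Directions turned only for log2 differences that were not called. With library size alone these were Irf1 (-0.086) and Irf3 (-0.14) with LPS, Irf3 between 32 µM and DMSO (-0.070) and Irf5 at 3.2 µM (-0.00033). Without the count filter they were Irf3 (-0.0011) and Irf5 (-0.0066) at 3.2 µM. With the short-transcript score they were Irf2 (0.0063), Irf3 (-0.017) and Irf5 (-0.0059) at 3.2 µM and Irf5 at 32 µM (0.0026). Leaving out 1 library turned Irf2 at 32 µM (-0.16 to 0.0088), at 3.2 µM (-0.058 to 0.0074), between 32 and 10 µM (-0.11 to 0.058) and between 10 and 3.2 µM (-0.072 to 0.015). It turned Irf3 at 10 µM (-0.13 to 0.19), at 3.2 µM (-0.044 to 0.068), between 32 and 10 µM (-0.14 to 0.20) and between 10 and 3.2 µM (-0.15 to 0.19). It also turned Irf5 at 32 µM (-0.025 to 0.0072) and at 3.2 µM (-0.0082 to 0.024) and Irf9 at 3.2 µM (-0.029 to 0.0058). The cause was not tested. With 2 libraries a condition, the 95% intervals of these genes, such as -0.18 to 0.31 for Irf3, limit what could be seen.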

Other observations

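Within libraries, Irf1 and its antagonist Irf2 also shifted against each other. Per nucleotide of transcript, the ratio of Irf1 to Irf2 was 0.466 and 0.412 in DMSO, 0.573 and 0.641 once LPS was added, and under LPS with **1** 0.692 and 0.650 (3.2 µM), 0.619 and 0.511 (10 µM) and 0.506 and 0.458 (32 µM). Both libraries at 32 µM lay below both of DMSO + LPS, and 1 of them lay within the range of DMSO. The ratio of Irf5 to Irf8, a pair of factors of mature myeloid cells, was 7.93 and 8.44 in DMSO, 20.3 and 20.0 once LPS was added, and under LPS with **1** 21.0 and 21.2 (3.2 µM), 25.0 and 23.8 (10 µM) and 25.5 and 23.3 (32 µM). All 8 libraries with LPS lay above both of DMSO, and the 10 and 32 µM libraries overlapped. The ratio of Irf7 to Irf9 was 2.15 and 2.09 in DMSO, 8.22 and 8.45 once LPS was added, and 3.75 and 3.47 under LPS with 32 µM. These ratios are descriptions and were not tested.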
